A study of Mus musculus with 6 samples.

Results

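The genes described here are 9 of the 31053 genes in a single-cell mRNA-seq table of mouse tumors: the CC chemokines *Ccl2*, *Ccl3*, *Ccl4*, *Ccl5*, *Ccl7*, *Ccl8* and *Ccl17*, and the receptors *Ccr1* and *Ccr2*. They were taken by name, and all 9 were found, with 2487791 of the 915317050 unique molecular identifiers (UMIs, each standing for 1 captured transcript) in the table. The tumors were grown in mice from CT26, a colorectal carcinoma cell line, dissected 5 days after treatment, dissociated and enriched for CD45+ cells with beads. The sample labels describe 6 tumors in 3 groups of 2: vehicle, or a PD-1 GITR-L bispecific antibody (a PD-1 antibody that carries GITR ligand) at the dose called low or at the dose called high. The high dose is given as 30 mg/kg, and the low dose as 10 mg/kg in the treatment protocol but as 30 mg/kg in the sample characteristics. The deposited table holds 33961 cells in 4 libraries named M1, M2, M5 and M6, and nothing in the labels ties a library to a tumor or a treatment. The groups could therefore not be compared. Values are given by library or pooled over the 4 libraries, no test was run over libraries, and the comparisons made are between cell types within libraries.

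CC chemokines are small secreted proteins that direct leukocytes along concentration gradients through receptors of the G protein-coupled class. *Ccl2* and *Ccl7* encode monocyte chemoattractants, which attract cells bearing CCR2, and *Ccl8* a related chemokine whose mouse form is described as acting through CCR8, while *Ccl3*, *Ccl4* and *Ccl5* encode inflammatory chemokines, of which CCL3 and CCL5 act through CCR1 among other receptors. *Ccl17* encodes a ligand of CCR4. In tumors, CCR2 is known for bringing monocytes from blood into the tissue, where they give rise to macrophages.

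The libraries held between 7160 and 10294 cells, with a median of 11399 to 21800 UMIs per cell, and 111 cell barcodes occurred in 2 libraries and 0 in more than 2. The authors' 12 cell labels were used. The 8 labels with at least 20 cells in every library were Stroma (15687 cells), ILC (4628), NK cells (4398), T cell EFF (3633), Myeloid (2680), T cell MEM (1179), NKT (781) and DC (556). The Stroma label was nearly devoid of the leukocyte gene *Ptprc*, which encodes CD45, at 7.47 CPM (counts of the gene per 1000000 UMIs of the same cells) against 463 to 1240.5 in the other 7 labels, and only 11.2% of its cells passed 200 CPM of the fibroblast collagen gene *Col3a1*. ILC cells carried the NK gene *Ncr1* at 422 CPM, close to the 449.7 of NK cells. Myeloid cells led in *Lyz2* and *Csf1r*, and DC in *Flt3*.

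A gene's level is the sum of its UMIs over the cells of a label, divided by all UMIs of those cells, in CPM. Cells of 1 library are no replicates, and intervals cover counting error only. Shares of cells with a UMI were taken after each cell with at least 2000 UMIs was thinned to that number, since deeper cells catch more transcripts. Shallower cells were left out of the thinned shares, among them 180 NK cells, 133 Myeloid cells, 68 NKT and 12 B cells. Levels cover 3′-end counts, so no correction for transcript length was made.

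*Ccl7*, *Ccl8*, *Ccl17* and *Ccr1* had their highest level in the same label in every library, at least 2-fold above the next label. These are 4 of the 9 genes, beside 9.77% of the 12632 genes with at least 100 UMIs in every library, a minimum that all 9 passed. Myeloid was that label for *Ccl7*, *Ccl8* and *Ccr1* (1.91% of all tested genes) and DC for *Ccl17* (1.16%). The other 5 genes were spread over several labels, or led by less than 2-fold in some library: *Ccl3* and *Ccl4* were highest in Myeloid cells and *Ccl5* and *Ccr2* in NK cells in all 4 libraries, and *Ccl2* was highest in Stroma in 3 libraries and in Myeloid cells in M1.

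**Figure D1:**
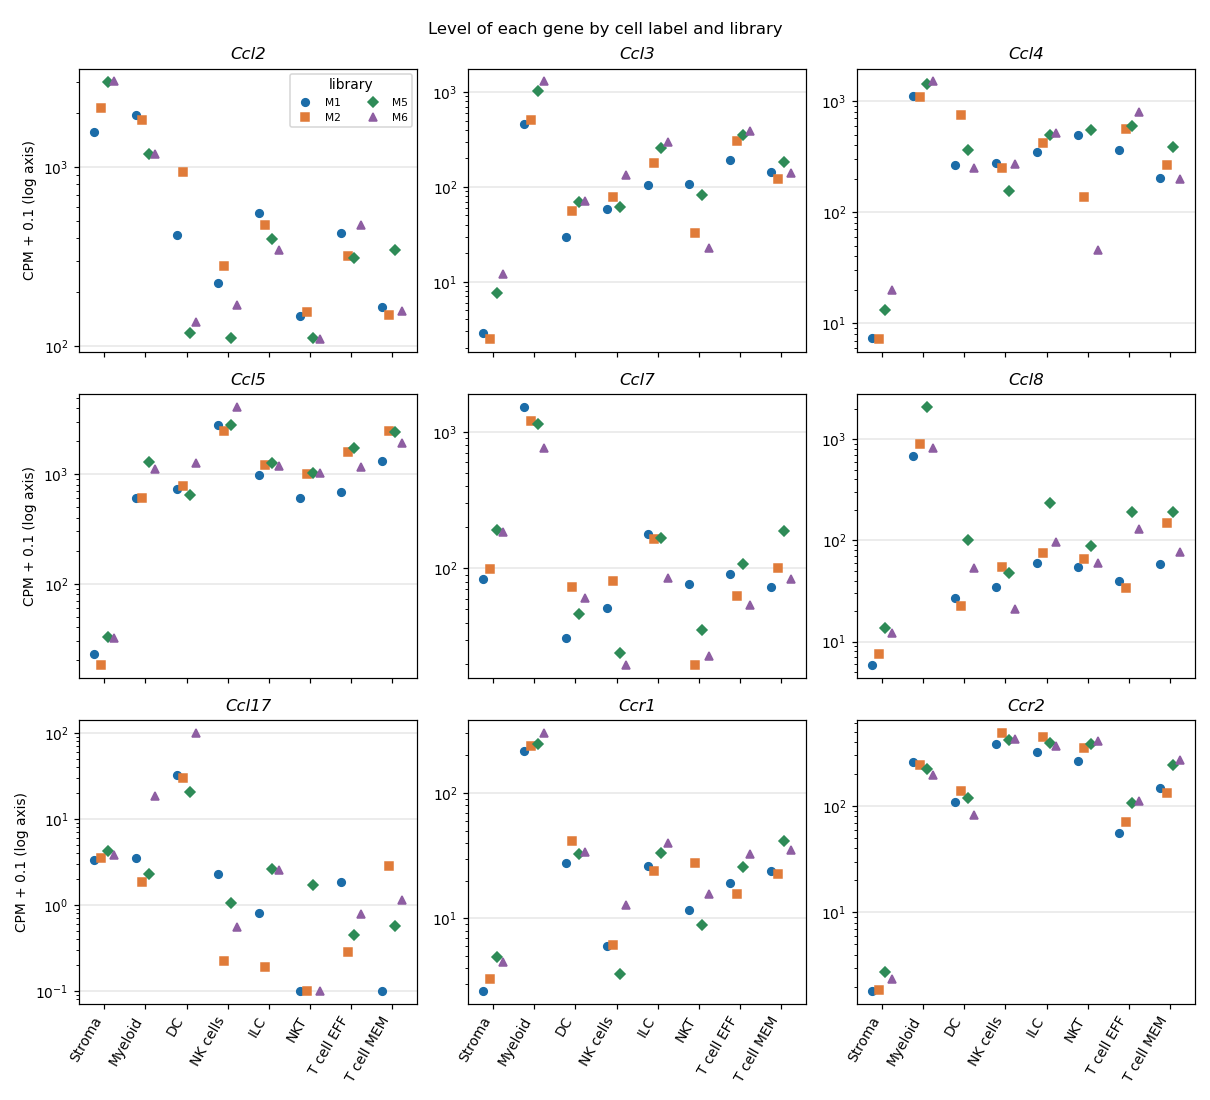
Level of each of the 9 genes (vertical axis, CPM plus 0.1, log scale) in the 8 larger cell labels (horizontal axis), with 1 point for each library (M1, M2, M5, M6). *Ccr1*, *Ccl7* and *Ccl8* stand apart in Myeloid cells and *Ccl17* in DC, while *Ccr2* lies between 264 and 486 CPM in NK cells, ILC and NKT alike and under 3 CPM in Stroma.

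Most of the genes lie in gene clusters. In the GRCm38 build (GENCODE M21 annotation), *Ccl2* (chr11:82035571-82037453), *Ccl7* (chr11:82045712-82047525) and *Ccl8* (chr11:82115185-82116799) lie on the plus strand of chromosome 11, with *Ccl11* and *Ccl12* between *Ccl7* and *Ccl8*. *Ccl5* (chr11:83525778-83530518), *Ccl3* (chr11:83647844-83649355) and *Ccl4* (chr11:83662584-83664683) form the second group, further along the same chromosome, with *Ccl9* and *Ccl6* between *Ccl5* and *Ccl3*. *Ccl17* (chr8:94810453-94812036) lies near *Ccl22*, and *Ccr1* (chr9:123962124-123968692) and *Ccr2* (chr9:124101950-124113557) lie with *Ccr3* on chromosome 9.

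RefSeq promoter sequences (GRCm38.p6, the 250 bases before the annotated start, 5′ to 3′ on the gene's strand) were found for *Ccl3*, *Ccl8*, *Ccl17*, *Ccr1* and *Ccr2*. Motifs of 4 immune transcription factors and the TATA box were searched on both strands. The NF-kB motif searched was GGNNNTTCC, which 15.7% of 32851 promoters held in windows of the same length, and the STAT motif was TTCNNNGAA, held by 7.02%. For PU.1 the letters were GAGGAAG, found in 10.6% of promoters. The AP-1 motif, TGANTCA, was in 6.75%. The TATA box, TATAAA, was in 12.4%. The 3 shown are those of the genes led by Myeloid cells or DC, with the matches in capitals.
Ccl8 (chr11:82114935-82115184, plus strand): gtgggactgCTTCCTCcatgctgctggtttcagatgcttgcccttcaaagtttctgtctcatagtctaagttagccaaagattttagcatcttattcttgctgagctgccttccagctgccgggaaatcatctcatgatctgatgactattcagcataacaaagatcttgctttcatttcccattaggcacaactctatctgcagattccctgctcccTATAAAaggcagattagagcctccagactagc
Ccl17 (chr8:94810203-94810452, plus strand): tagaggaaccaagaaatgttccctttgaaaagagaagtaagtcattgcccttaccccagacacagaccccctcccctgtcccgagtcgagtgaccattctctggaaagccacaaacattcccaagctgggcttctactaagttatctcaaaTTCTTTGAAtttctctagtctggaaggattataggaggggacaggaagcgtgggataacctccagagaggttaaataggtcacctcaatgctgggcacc
Ccr1 (chr9:123968693-123968942, minus strand): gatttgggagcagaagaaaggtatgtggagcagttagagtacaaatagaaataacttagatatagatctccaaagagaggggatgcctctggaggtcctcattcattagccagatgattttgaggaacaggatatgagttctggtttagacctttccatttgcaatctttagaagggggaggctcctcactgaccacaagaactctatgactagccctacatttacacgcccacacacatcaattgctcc
The *Ccl8* window held a PU.1 match on the minus strand and a TATA box ending 27 bases before the start, the *Ccl17* window a STAT match, and the *Ccr1*, *Ccr2* and *Ccl3* windows none of the 5. A match describes the letters in this window only.

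*Ccl2*, the main monocyte chemoattractant, was high both in Stroma and in Myeloid cells. In Stroma its level was 1579.7 CPM in library M1, then 2152 (M2), 3013 (M5) and 3021 (M6). In Myeloid cells it was 1968, 1829, 1182 and 1178 CPM in the same order. The ranges of both labels overlapped, and the library order was opposite: M5 and M6 were the higher libraries in Stroma and the lower ones in Myeloid cells. Because Stroma cells were numerous and deep, they held 92.7% of all *Ccl2* UMIs and Myeloid cells 3.45%.

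After thinning, 58.4% of Stroma cells (95% interval 57.6 to 59.1) and 55.1% of Myeloid cells (53.2 to 57.1) had a *Ccl2* UMI. Before thinning, when Stroma cells held a median of 40692 UMIs and Myeloid cells 8027, these were 93.0% and 77.9%. Every other large label lay at 19.1% to 22.7% after thinning, and B cells, which are not known for making CCL2, at 24.1% (16.5 to 33.1) of 112 cells. The shares in the T, NK, ILC and DC labels lay within the interval of the B cell label, whereas their pooled levels were 122 CPM (NKT) to 438 CPM (DC), beside 203 in B cells. DC were at 418, 939.8, 117 and 136 CPM in M1, M2, M5 and M6, so that the pooled value rested on M2. What part free RNA has in these shares was not tested. Within those labels except NKT the *Ccl2* UMIs were uneven, with the richest 1% of cells holding 46.0% of them in ILC, 59.3% in T cell EFF and 64.7% in DC, against 11.1% in Stroma.

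*Ccl7*, a monocyte chemoattractant encoded next to *Ccl2*, was at 1515 (M1), 1209 (M2), 1134 (M5) and 763 CPM (M6) in Myeloid cells. The next label when pooled, ILC, was at 84.7 to 179 CPM, while in M5 and M6 Stroma was above ILC, at 192 and 183 CPM. No label came within the Myeloid range, and Myeloid cells were 4.17- to 8.48-fold above the next label within libraries. Below Myeloid the ranges of ILC, T cell MEM, Stroma and T cell EFF overlapped. Stroma held 58.0% of all *Ccl7* UMIs at 119 CPM, and 11.4% of thinned Stroma cells (10.9 to 11.9) had one, against 38.2% of Myeloid cells (36.3 to 40.1) and 6.25% of B cells (2.55 to 12.5). Unthinned, these shares were 40.7%, 51.3% and 10.5%.

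*Ccl8*, a chemokine related to both by sequence and position, had 63.8% of its UMIs in Myeloid cells. Its Myeloid level was 674 CPM (M1), 892 (M2), 2060.1 (M5) and 816 (M6). M5 stood above the other libraries, with a counting interval of 2031 to 2089.9 CPM beside 800.4 to 831 in M6. Without M5 the pooled Myeloid level was 794 CPM in place of 1096. T cell MEM came next when pooled, at 58.7 to 190.2 CPM, followed without a gap by ILC and T cell EFF. A *Ccl8* UMI was found in 24.9% of thinned Myeloid cells (23.3 to 26.7), in 1.66% of Stroma cells and in 4.46% of B cells (1.47 to 10.1), and unthinned in 43.1%, 16.0% and 6.45%.

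**Figure D2:**
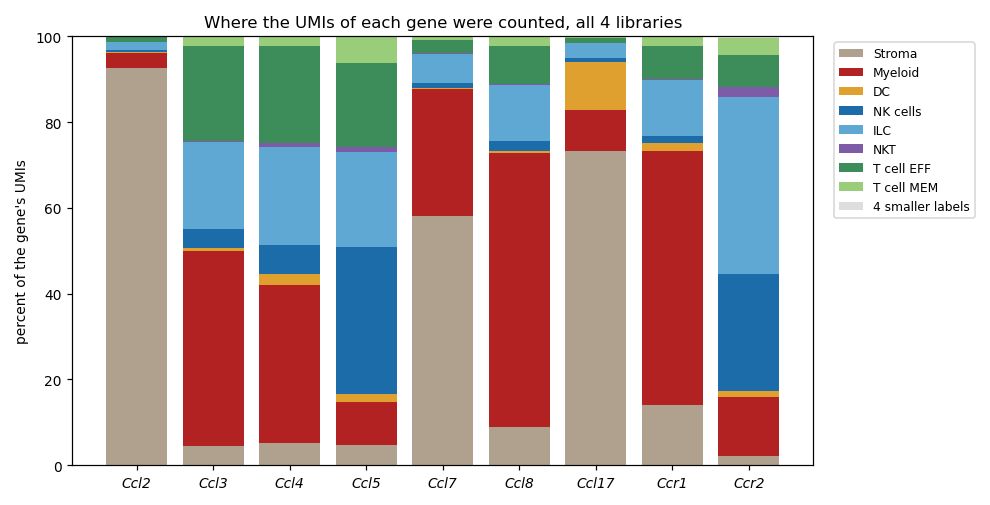
Share of each gene's UMIs (vertical axis, percent, stacked to 100) that was counted in each cell label, all 4 libraries together, for the 9 genes (horizontal axis). Stroma holds 92.7% of *Ccl2*, 58.0% of *Ccl7* and 73.3% of *Ccl17* UMIs through its many deep cells, although the levels of *Ccl7* and *Ccl17* in CPM were highest in Myeloid cells and DC.

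*Ccl3*, an inflammatory chemokine of macrophages and activated lymphocytes, was at 460.1, 512, 1019 and 1297 CPM in Myeloid cells of M1, M2, M5 and M6. T cell EFF followed at 190.2, 302, 356 and 389 CPM, in the same order of libraries. The Myeloid range lay above that of T cell EFF, and T cell EFF was above ILC in 4 of 4 libraries although their ranges overlapped. Stroma was lowest at 2.39 to 11.9 CPM. The richest 1% of cells held 54.3% of the *Ccl3* UMIs in T cell EFF and 54.3% in ILC, against 20.9% in Myeloid cells. After thinning, 37.7% of Myeloid cells, 12.4% of T cell EFF, 11.2% of NK cells and 2.68% of B cells (0.556 to 7.63) had a *Ccl3* UMI, and unthinned 55.1%, 26.5%, 17.4% and 3.23%.

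*Ccl4*, encoded beside *Ccl3*, was at 1104, 1084, 1420 and 1502 CPM in Myeloid cells of M1, M2, M5 and M6. In T cell EFF it was at 361, 565, 598 and 802 CPM, 1.87- to 3.06-fold lower within libraries. NKT was the most uneven label, at 496, 138, 544 and 46.0 CPM, with 594 of its 1181 *Ccl4* UMIs in 1 cell. The richest 1% of cells held 39.6% of the *Ccl4* UMIs in T cell EFF and 40.6% in ILC, against 16.4% in Myeloid cells. The ranges of T cell EFF, ILC, DC, NKT, T cell MEM and NK cells overlapped with their neighbours, and all lay above Stroma, at 7.14 to 19.9 CPM. *Ccl4* UMIs were found in 45.4% of thinned Myeloid cells, 23.3% of T cell EFF, 19.5% of NK cells and 4.46% of B cells (1.47 to 10.1), and unthinned in 62.0%, 45.9%, 30.0% and 4.03%.

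*Ccl5*, a chemokine of cytotoxic lymphocytes, was the most lymphoid of the ligands. NK cells had 2833 CPM (M1), 2456 (M2), 2826 (M5) and 4069 (M6). T cell MEM had 1321, 2455, 2433 and 1933 CPM in that order. Over all cells NK cells were higher in every library, but in M2 the levels were 2456 and 2455 CPM. T cell EFF (682 to 1722 CPM), ILC (992 to 1263), NKT (609.9 to 1023), Myeloid cells (599.7 to 1299) and DC (641 to 1258) overlapped, and Stroma was at 18.1 to 32.3 CPM. Thinned shares were 59.3% in NK cells (57.8 to 60.8), 52.4% in T cell MEM, 48.0% in T cell EFF and 6.25% in B cells (2.55 to 12.5), and unthinned 71.7%, 66.4%, 70.2% and 10.5%. Among cells above the median UMIs of their label and library, T cell MEM were above NK cells in every library. NK cells were then at 1217, 862, 797 and 1569 CPM (M1, M2, M5, M6) and T cell MEM at 1265, 2387, 2395 and 1723. Among the shallower cells NK cells were at 11402 CPM pooled and T cell MEM at 2448.

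*Ccl17*, a ligand made by dendritic cells, was rare, with 3239 UMIs in all. DC had 32.0 CPM (M1), 29.4 (M2), 20.4 (M5) and 98.6 (M6), and the counting intervals of M6 (85.2 to 114) and M5 (14.3 to 28.1) did not meet. Myeloid cells followed when pooled, at 3.42, 1.76, 2.20 and 18.5 CPM by library, again highest in M6, where 242 of their 304 UMIs were counted. Few cells carried these counts. The richest 6 of 556 DC held 47.8% of the DC UMIs, and 1 Myeloid cell alone held 141. A *Ccl17* UMI was seen in 4.64% of thinned DC (3.02 to 6.77) and 11.2% unthinned. In Stroma, where 73.3% of all *Ccl17* UMIs lay, the level was 3.43 CPM, the thinned share 0.646% and the unthinned share 7.38%. Stroma was above Myeloid cells in M2 and M5, at 3.36 and 4.08 CPM. In T cell EFF 0 of 3545 cells had a *Ccl17* UMI after thinning, and 0.468% did unthinned (0.273 to 0.748).

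*Ccr1*, a receptor for CCL3, CCL5 and CCL7 on myeloid cells, was confined in the main to Myeloid cells, with 59.2% of its UMIs there. Its Myeloid level was 217, 238, 247 and 301 CPM in M1, M2, M5 and M6. The next label when pooled, T cell MEM, was at 22.7 to 41.8 CPM, and the ranges of T cell MEM, DC, ILC and T cell EFF overlapped. NK cells were at 3.48 to 12.6 CPM and Stroma at 2.55 to 4.84. A *Ccr1* UMI was found in 37.6% of thinned Myeloid cells (35.7 to 39.5), 5.57% of DC, 3.10% of T cell EFF and 0.893% of B cells (0.0226 to 4.87), and unthinned in 67.9%, 15.3%, 13.0% and 2.42%.

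*Ccr2*, the receptor of CCL2 and CCL7, was highest in NK cells, ILC and NKT. NK cells were at 382, 486, 418 and 431 CPM in M1, M2, M5 and M6. ILC were at 326, 451, 392 and 365 CPM and NKT at 264, 354, 384 and 413. These 3 labels overlapped. NK cells were above ILC in 4 of 4 libraries, by 1.07- to 1.18-fold. T cell MEM (134 to 271 CPM) and Myeloid cells (195 to 258) came next and overlapped each other, then DC (81.8 to 139) and T cell EFF (55.3 to 111).

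Stroma, which had the largest *Ccl2* pool, had *Ccr2* at 1.73 to 2.64 CPM. Thinned shares with a *Ccr2* UMI were 52.2% in ILC (50.8 to 53.7), 51.6% in NK cells (50.1 to 53.2), 37.3% in NKT, 27.8% in Myeloid cells, 11.7% in T cell EFF, 1.79% in B cells (0.217 to 6.30) and 0.467% in Stroma. Unthinned, they were 84.7%, 77.6%, 49.9%, 52.4%, 29.4%, 2.42% and 5.64%. Of the 62264 *Ccr2* UMIs, 41.2% were in ILC, 27.2% in NK cells and 13.7% in Myeloid cells.

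The lower levels outside Myeloid cells were set beside the macrophage markers *Lyz2*, *C1qa*, *C1qb*, *C1qc*, *Apoe*, *Adgre1*, *Csf1r* and *Cd68*. The remaining macrophage and monocyte genes listed, *Plac8*, *Ly6c2* and *Itgam*, were left out after their values were seen, since lymphocytes also transcribe them. In T cell EFF *Plac8* was at 94.7%, *Ly6c2* at 90.9% and *Itgam* at 6.54% of the Myeloid level. In ILC *Plac8* was at 113% and *Ly6c2* at 98.8%. In NK cells *Plac8* was at 119%, *Ly6c2* at 57.3% and *Itgam* at 9.74%, the last above *Ccl3* at 9.43%, so *Ccl3* stood above the markers there only without these genes. With all 11 the marker range held *Ccl2*, *Ccl3* and *Ccl4* in each of these 3 labels. In T cell EFF these 8 markers were at 5.06% to 9.28% of their Myeloid level. *Ccl7* (7.42%), *Ccr1* (9.15%) and *Ccl8* (9.96%) lay within or just above that band, whereas *Ccl3* was at 35.2% and *Ccl4* at 44.4%. In ILC the markers were at 8.35% to 13.9%, with *Ccl8* at 11.4%, *Ccr1* at 12.4% and *Ccl7* at 13.0%, and with *Ccl3* at 24.9% and *Ccl4* at 34.8%. In NK cells the markers were at 1.86% to 4.62%, with *Ccr1* at 2.72%, *Ccl8* at 3.56% and *Ccl7* at 3.61%, and with *Ccl3* at 9.43% and *Ccl4* at 17.6%. *Ccl2* was above the 8 markers in these 3 labels, at 25.3% in T cell EFF, 26.0% to 33.7% across libraries in ILC, and 12.5% in NK cells. In Stroma, however, *Ccl2* was at 147% of its Myeloid level and the 8 markers at 0.200% to 4.18%. These markers therefore cannot gauge transcripts from Stroma, and the part of those in the *Ccl2* levels was not tested. In the other 3 labels the 8 markers reached 17.3% (T cell MEM), 18.3% (NKT) and 31.0% (DC). *Ccl4* was above them when pooled, at 21.6%, 21.9% and 32.7% in that order. Its libraries ran from 13.1% to 27.3%, 3.06% to 44.9% and 16.5% to 69.7%, overlapping those of *Cd68*, *Apoe* and *Cd68*. In DC *Ccl4* was at 755 CPM in M2 but at 268, 364 and 248 in M1, M5 and M6. The pooled DC value thus rested on M2. *Ccl3* was just above the 8 markers in T cell MEM when pooled, at 17.5%, but its libraries ran from 10.8% to 31.3%, across those of *Cd68*. It was inside the range of the 8 markers in NKT (6.31%) and DC (6.30%). *Ccl2* was inside that range in each of these labels, at 15.8%, 8.25% and 29.5%. With all 11 genes the marker range reached 129.8% (T cell MEM), 88.6% (NKT) and 86.0% (DC). It then held *Ccl2*, *Ccl3* and *Ccl4* in each. The part that macrophage transcripts have in the lymphoid levels of *Ccl7*, *Ccl8* and *Ccr1* was not tested.

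**Figure D3:**
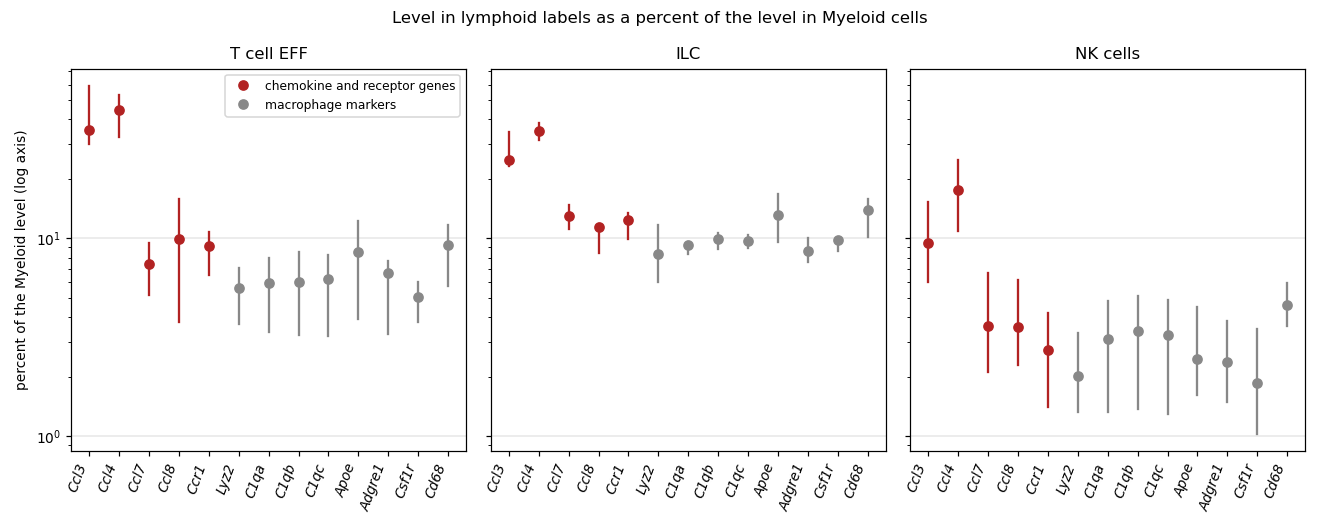
Level in T cell EFF, ILC and NK cells as a percent of the Myeloid level (vertical axis, log scale) for 4 chemokine genes and *Ccr1* (red) and 8 macrophage markers (grey), with points for all libraries pooled and bars from the lowest to the highest library. In these 3 labels *Ccl3* and *Ccl4* sit above the 8 markers shown and *Ccl7*, *Ccl8* and *Ccr1* near them, which did not hold for *Ccl3* in NKT (6.31%) and DC (6.30%), nor with *Plac8*, *Ly6c2* and *Itgam*, which are not shown.

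Markers of other cells differed with depth inside ILC and T cell EFF, not all in the same direction. When ILC were divided at the median UMIs of their library, the deeper cells had *Ccl2* at 502 CPM against 117 in the shallower cells, and *Ccl7* at 169 against 37.5, with no overlap between libraries. *Csf1r* was higher alongside, at 16.2 against 3.13 CPM, and *Lyz2* at 644 against 166. *Col3a1* was at 16.5 against 5.71 CPM with overlap. Of the neutrophil genes, *Cxcr2* (1.98 against 4.61 CPM), *S100a9* (99.0 against 217) and *S100a8* (47.3 against 84.1) were lower in the deeper ILC when pooled. *Csf3r* was at 6.03 against 5.55, and the libraries overlapped for each of these neutrophil genes. In T cell EFF *Ccl2* was at 446 against 111 CPM and *Ccl7* at 96.3 against 28.9, beside *Csf1r* at 8.65 against 1.26. *Col3a1* was at 10.3 against 4.42 CPM there, higher in the deeper cells of every library with overlap. The NK genes *Ncr1* (22.8 against 5.32 CPM), *Klrb1c* (5.04 against 0.632) and *Eomes* (35.2 against 20.8) were also higher in the deeper T cell EFF, in 4 of 4 libraries without overlap, and *Gzma* was at 772 against 338 with overlap. *Prf1*, the remaining NK gene listed, was at 784 against 816 CPM, higher in the shallower T cell EFF in 3 of 4 libraries with overlap. *Ccr2* went the other way in ILC, at 349 CPM in the deeper and 507 in the shallower cells. Cells holding more than 1 cell type were not removed, and their part in this was not tested.

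*Ccl5* in NK cells differed with depth by 10.3-fold. The UMIs of a cell decided on which side of the median it fell and also enter its CPM. The shallower NK cells (median 3418 UMIs) had 11402 CPM and the deeper ones (median 11075) had 1104, with shallower cells higher in 4 of 4 libraries and no overlap. *Ccl4* went with it, at 654 against 129 CPM, and *Ccl3* at 221 against 51.2. *Gzma*, the granzyme that marks NK cells, did not differ in this way, at 15232 against 15129 CPM, and *Prf1* was at 1633 against 1838. *Eomes*, a transcription factor of NK cells, was at 543 against 243 CPM. Of the other NK genes, *Klrb1c* was at 178 against 94.1, without overlap, and *Ncr1* at 489 against 440.3, with overlap. Among single NK cells the ninth decile of *Ccl5* was 21647 CPM and the median 1108. *Ccl5* was also higher in the shallower ILC, at 2700 against 805 CPM, in 4 of 4 libraries without overlap. In T cell EFF it was at 2207 against 1095 CPM, in 4 of 4 libraries with overlap. Pooled, Myeloid cells (615 against 998) and NKT (852 against 986) went the other way.

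In Myeloid cells *Ccl3*, *Ccl4* and *Ccr1* were likewise higher in the shallower cells. *Ccl3* was at 2974 against 545 CPM, *Ccl4* at 3091 against 1017 and *Ccr1* at 497 against 217, each in 4 of 4 libraries with no overlap. The neutrophil genes *S100a8* (1580.3 against 202 CPM) and *Cxcr2* (49.7 against 7.89) were also higher there. Genes of lymphocytes were lower there in 4 of 4 libraries without overlap: *Gzma* at 338 against 1322 CPM, *Prf1* at 46.7 against 218, *Ncr1* at 17.0 against 49.7 and *Cd3e* at 39.7 against 84.4. The part of either in these differences was not tested. *Ccl2* did not differ in this way, at 1447 against 1488 CPM, nor *Ccr2*, at 219 against 226.

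**Figure D4:**
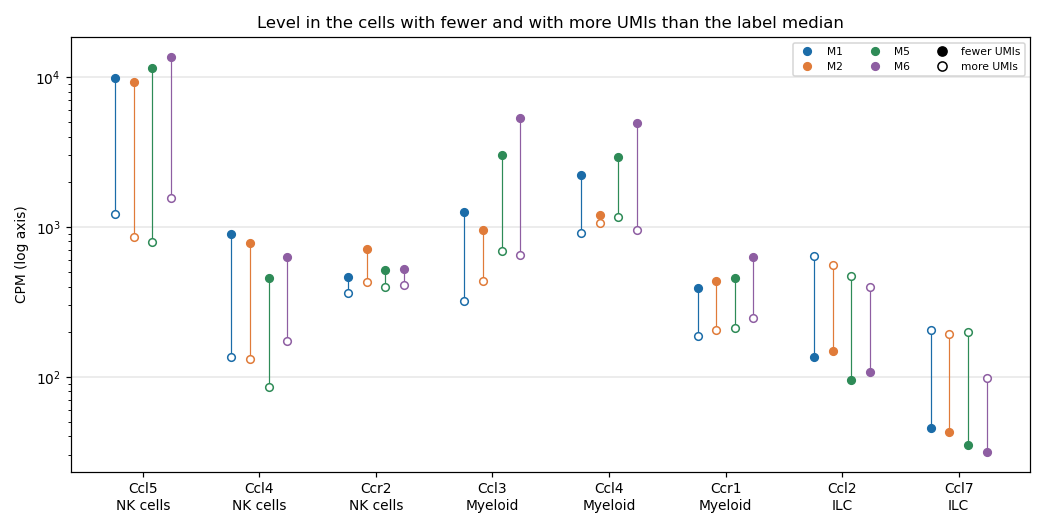
Level (vertical axis, CPM, log scale) of 8 gene and label pairs (horizontal axis) in the cells with fewer UMIs (filled points) and more UMIs (open points) than the median of their label and library, joined by a line for each library. *Ccl5* in NK cells falls from 11402 to 1104 CPM (libraries pooled) with depth, while *Ccl2* in ILC goes from 117 to 502.

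The Myeloid label joined cells with different markers, and chemokine levels differed between them. Cells with *C1qa*, *C1qb* and *C1qc* together at 1000 CPM or more, a mark of tumor macrophages, were compared with the rest. There were 711 such cells and 1969 others, with medians of 13452 and 7371 UMIs, and 227 cells lay within 2-fold of the limit. *Ccl8* was at 2588 CPM in the C1q-high and 225 in the C1q-low cells, 7.03- to 18.4-fold apart within libraries and without overlap. C1q-high cells were 26.5% of Myeloid cells and held 87.0% of their *Ccl8* UMIs. *Ccl12*, a chemokine encoded between *Ccl7* and *Ccl8*, followed at 1013 against 130.3 CPM. *Ccl7* (1687 against 767) and *Ccl2* (2041 against 1156) were higher in C1q-high cells in 4 of 4 libraries by smaller factors, *Ccl2* with overlapping ranges.

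*Ccr1* was lower in C1q-high cells, at 172 against 307 CPM, in 4 of 4 libraries and without overlap. *Ccl3* was lower too, at 474 against 1135 CPM, but its libraries overlapped, and in M1 and M2 the difference was small (434 against 485 and 482 against 534). *Ccl4* and *Ccl5* were higher in C1q-high cells in 2 of 4 libraries each. *Ccr2* was at 199.6 against 240 CPM, lower in 4 of 4 libraries with overlapping ranges.

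The Myeloid cells included 2 further kinds, chosen after their values were seen. Cells with the mast cell genes *Cpa3*, *Mcpt4* and *Tpsb2* together at 500 CPM or more numbered 299. Their *Ccl7* level was 3329 CPM (M1), 5261 (M2), 8228 (M5) and 5087 (M6), above the 1289 to 2248 of C1q-high cells without these genes in every library. They were 11.2% of Myeloid cells and held 22.6% of the Myeloid *Ccl7* UMIs. *Ccl2* was also high in them, at 2879 CPM, while *Ccl8* (49.9), *Ccr1* (32.9) and *Ccr2* (73.0) were low. Without these cells the C1q-high cells had *Ccl7* at 1676 CPM against 419 in the C1q-low ones. The cells with mast cell genes had a median of 4524 UMIs, against 13735 in C1q-high cells without them. The part of depth was not tested.

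Cells with UMIs of at least 3 of the 5 neutrophil genes *S100a8*, *S100a9*, *Retnlg*, *Csf3r* and *Cxcr2*, and neither C1q nor mast cell genes at those levels, numbered 355, with 35 to 188 in a library. *Ccl3* was at 1348, 1005, 2321 and 2992 CPM in them in M1, M2, M5 and M6, against 433, 518, 1109 and 1076 in the remaining C1q-low cells. Each library was 1.94- to 3.11-fold higher, and the ranges overlapped because M5 and M6 were higher in both. *Ccl4* was at 2752 against 1129 CPM and *Ccr1* at 512 against 282, higher in 4 of 4 libraries, *Ccr1* without overlap. *Ccr2* was lower, at 185 against 269.9 CPM, without overlap. These cells were 13.2% of Myeloid cells and held 33.2% of the Myeloid *Ccl3*, 24.6% of the *Ccl4* and 23.3% of the *Ccr1* UMIs. Their median was 5121 UMIs, against 8834 in the remaining C1q-low cells, and the part of depth in these differences was not tested.

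**Figure D5:**
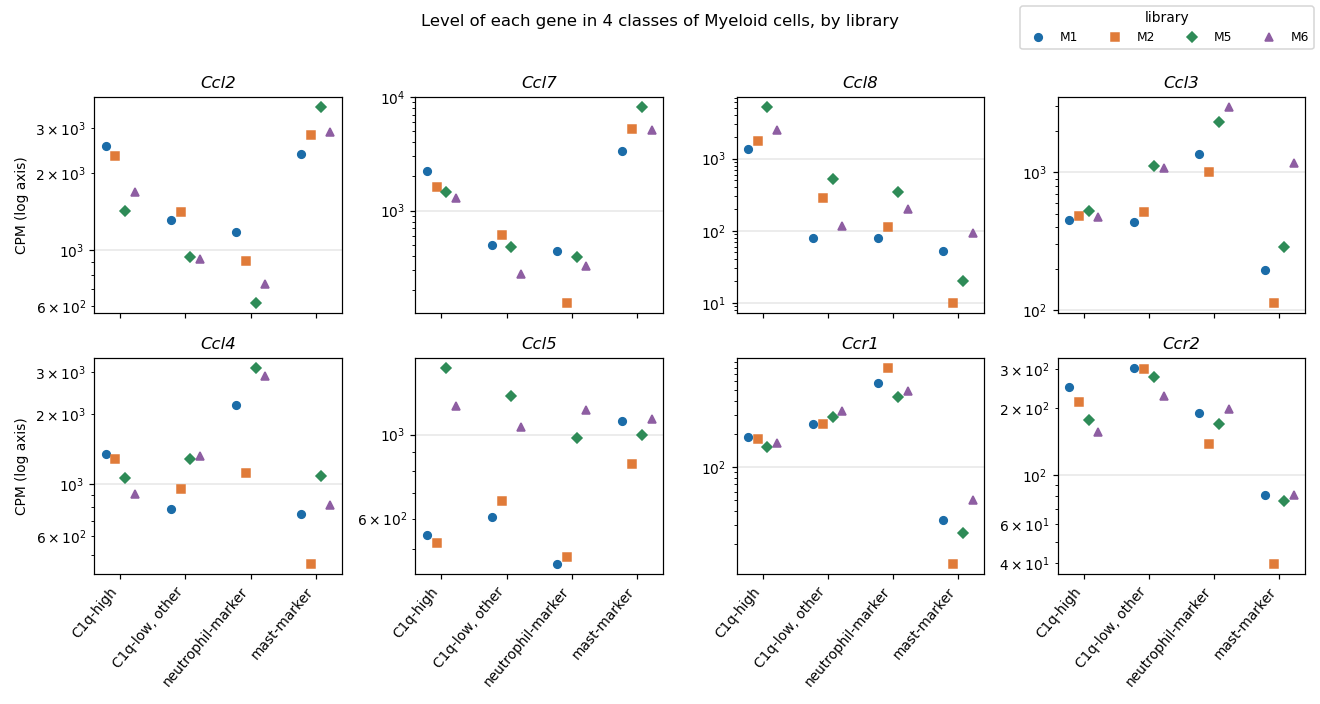
Level (vertical axes, CPM, log scale) of 8 genes in 4 classes of Myeloid cells (horizontal axes), with 1 point for each library. *Ccl8* is highest in the 701 C1q-high cells, *Ccl7* in the 299 mast-marker cells, and *Ccl3* and *Ccr1* in the 355 neutrophil-marker cells, beside 1325 other C1q-low cells.

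In DC, cells with UMIs of at least 2 of the maturation genes *Ccr7*, *Fscn1* and *Cacnb3* numbered 116 of 556, with 22 to 39 in a library. *Ccl5* was at 1475, 3581, 2252 and 3286 CPM in them in M1, M2, M5 and M6, against 375, 78.9, 137 and 457 in the other DC. Pooled, this was 10.6-fold, and the mature-marker cells held 78.6% of the *Ccl5* UMIs of DC. *Ccl17* was at 111 against 21.5 CPM, higher in 4 of 4 libraries with overlapping ranges, and *Ccl22*, which encodes the other ligand of CCR4, at 609 against 62.9 without overlap. *Ccl4* was lower in the mature-marker DC, at 123 against 535 CPM, and so was *Ccr2*, at 42.4 against 139, both in 4 of 4 libraries and without overlap. The mature-marker DC had a median of 12010 UMIs, against 9219 in the other DC. When all DC were divided at their median depth, *Ccl17* was at 51.7 CPM in the deeper and 10.7 in the shallower cells, without overlap. The part of depth in these differences was not tested.

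In Stroma, the 1758 cells over 200 CPM of *Col3a1* had more *Ccl2*, *Ccl7* and *Ccl8* than the other 13929, although 2442 Stroma cells lay within 2-fold of that limit. *Ccl2* was at 3895, 4792, 6563 and 6018 CPM in the *Col3a1*-high cells of M1, M2, M5 and M6, against 1354, 1922, 2819.6 and 2818. *Ccl7* was at 403 against 95.2 CPM and *Ccl8* at 52.0 against 4.72, each higher in 4 of 4 libraries without overlap. The *Col3a1*-high cells made up 11.2% of Stroma and held 47.9% of its *Ccl8*, 26.1% of its *Ccl7* and 16.6% of its *Ccl2* UMIs. *Ccr1* was lower in them in 4 of 4 libraries, at 1.56 against 3.50 CPM, with overlapping ranges. The *Col3a1*-high cells were shallower, with a median of 27676 UMIs against 43469. When Stroma was divided at its median depth instead, the shallower cells had *Ccl2* 2.19-fold, *Ccl7* 2.60-fold, *Ccl8* 2.10-fold and *Col3a1* 3.94-fold above the deeper ones, in 4 of 4 libraries, with overlap for *Ccl8* alone of the 4 genes. The part of depth in the *Col3a1* comparison was not tested.

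In the T cell labels, cells with a CD3 chain UMI were grouped by transcripts, a grouping limited to these labels after the data were seen. CD8 cells (3921) had *Cd8a* or *Cd8b1* and no *Cd4*. Conventional CD4 cells (401) had *Cd4* and no *Cd8a*, *Cd8b1* or *Foxp3*. Regulatory cells (868) had a *Foxp3* UMI, whatever their *Cd4*, *Cd8a* or *Cd8b1*. A CD8 cell with *Foxp3* was therefore in both the CD8 and the regulatory group, and such cells were not taken out. *Ccl4* was at 382, 557, 673 and 831 CPM in CD8 cells of M1, M2, M5 and M6, against 123, 87.9, 35.8 and 98.6 in conventional CD4 cells. *Ccl3* (323 against 80.1) and *Ccl5* (1557 against 475) were also higher in CD8 cells in 4 of 4 libraries without overlap. Median depth was 9053 UMIs in CD8, 5003 in conventional CD4 and 6606 in regulatory cells. Conventional CD4 cells numbered 51 to 168 in a library and regulatory cells 52 to 386. The part of depth in the differences between these groups was not tested. Regulatory cells had *Ccl5* at 1218 CPM and *Ccl4* at 373, above conventional CD4 cells in 4 of 4 libraries without overlap, by 1.32- to 2.63-fold and 1.88- to 14.5-fold within libraries. CD8 cells were above regulatory cells in 4 of 4 libraries with overlapping ranges, by 1.33- to 1.49-fold within libraries in *Ccl5* and 1.01- to 4.47-fold in *Ccl4*. *Ccl3* was at 178 CPM in regulatory cells, below CD8 cells without overlap. *Ccr2* was lowest in CD8 cells, at 78.2 CPM against 233 in conventional CD4 cells and 332 in regulatory cells. CD8 cells were below both others in 4 of 4 libraries with no overlap. When all cells with these transcripts were taken, whatever their label, the CD8 to CD4 ratio of *Ccl4* was 2.18 in place of 7.72 and that of *Ccr2* 0.545 in place of 0.335. That of *Ccl3* was 2.31 in place of 4.03 and that of *Ccl5* 2.13 in place of 3.28. The CD8 and CD4 ranges then overlapped for *Ccl4* and *Ccl5* but not for *Ccl3* and *Ccr2*. Regulatory cells then had *Ccl4* 1.88-fold above conventional CD4 cells, higher in 3 of 4 libraries with overlap (0.637- to 3.60-fold), and *Ccl5* 1.99-fold, higher in 4 of 4 with overlap. *Ccl3* was then at 296 CPM in CD8 and 279 in regulatory cells, with CD8 cells 1.12- to 2.55-fold higher within each of the 4 libraries and overlapping ranges. *Ccl8* in regulatory cells differed widely between libraries, at 22.8 CPM (M1), 33.6 (M2), 429 (M5) and 304 (M6). The macrophage gene *Lyz2* was at 400.5, 444, 1058 and 607 CPM in the same cells and libraries, and pooled at 819 CPM against 309 in CD8 and 182 in conventional CD4 cells. Its part in the *Ccl8* level was not tested.

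Pairs of chemokine genes were compared for being found in the same cells. Among thinned Myeloid cells, *Ccl4* was seen in 70.9% of the 960 cells with *Ccl3* and in 29.9% of the 1587 without it. The shares were 64.6% and 17.5% in T cell EFF and 57.3% and 14.8% in NK cells, higher with *Ccl3* in 4 of 4 libraries in each. *Ccl7* was seen in 57.8% of Myeloid cells with *Ccl2* and 14.1% without, and in Stroma in 18.1% and 1.98%. *Ccl5* and *Ccl4* went together in NK cells, where 90.4% of cells with *Ccl4* and 51.7% of those without had *Ccl5*. In Myeloid cells that pair was at 38.8% and 34.1%, and in DC it went the other way, at 14.0% and 27.1%, lower with *Ccl4* in each of the 3 libraries with enough cells. In NK cells the *Ccl4*-positive cells had a median of 3857 UMIs before thinning and the others 6423.

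Receptors and ligands in the same Myeloid cells gave both orders. *Ccl3* was seen in 49.6% of cells with *Ccr1* and 30.5% of cells without, higher in 4 of 4 libraries. *Ccl7* was seen in 27.6% of cells with *Ccr1* and 44.6% without, and *Ccl8* in 18.6% of cells with *Ccr2* and 27.4% without, both lower in 4 of 4 libraries. *Ccl2* was found at nearly the same share with and without *Ccr2*, at 57.6% and 54.2%, higher in 2 of 4 libraries. *Ccr1* and *Ccr2* themselves overlapped, with *Ccr2* in 31.5% of cells with *Ccr1* and 25.6% without, higher in 3 of 4. These are descriptions of cells, which are not replicates.

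Across the 8 labels, the genes whose levels were most like each member's were sought by the mean over 4 libraries of Pearson's r of log2(CPM + 1), among all tested genes. Labels share their library and its free RNA, so r is given as a description only. For *Ccl8* these were *C1qb* (r = 0.980), *C1qa* (0.979) and *Ms4a7* (0.977), and for *Ccr1* *Fcgr4* (0.975), *Clec4a3* (0.958) and *Ms4a6d* (0.955). *Ccl3* and *Ccl4* were nearest to each other (0.931), followed by *Fam26f* (0.918) and *Adssl1* (0.908) for *Ccl3* and by *Cd38* (0.923) and *Hivep3* (0.918) for *Ccl4*.

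For *Ccl2* the nearest were *Cxcl1* (0.974), *Vat1* (0.955) and *Fn1* (0.954), and for *Ccl7* *Cfb* (0.956), *Pmp22* (0.933) and *Rsad2* (0.932). *Ccl5* was nearest to *Hes6* (0.979), *Runx3* (0.973) and *Tgfb1* (0.971), and *Ccr2* to *Prkd3* (0.982), *Arhgap25* (0.981) and *Pik3r5* (0.974). *Ccl17* had *Gm9530* (0.933), *Ttc39a* (0.924) and *Txndc17* (0.922). Among the 9 genes, *Ccr2* ran with *Ccl5* (r = 0.909) and against *Ccl2* (-0.618), the ligand of its product. When pooled, Stroma was lowest in *Ccr2* (1.94 CPM) and *Ccl5* (24.0) and highest in *Ccl2* (2185), and r without Stroma was not computed. NK cells were highest in both *Ccr2* and *Ccl5*. T cell EFF had *Ccl5* at 1329.6 CPM with *Ccr2* at 88.6, and NKT had *Ccl5* at 949 with *Ccr2* at 369.9.

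Of the 26 other CC chemokine, receptor and atypical receptor genes listed, 14 had at least 100 UMIs in every library, and 8 of these led in 1 label by at least 2-fold in every library, beside the 9.77% of all tested genes. Myeloid cells led 5 of them: *Ccl6* at 606 to 886 CPM, *Ccl9* at 329 to 395, *Ccl12* at 258 to 754, *Ccl24* at 23.8 to 43.1 and *Ccrl2*, an atypical receptor that does not signal, at 386 to 1009. *Ccl22* (116 to 373 CPM) and *Ccr9* (164 to 252) led in DC, and *Ccl11* in Stroma at 3.48 to 7.70. *Ccr4*, the receptor of CCL17, had 483 UMIs in the whole table and did not pass the minimum.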

How the data were processed

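The unit is counts: the authors deposited a table of raw UMI counts per gene and cell, made with Cell Ranger 3.0.2 on mm10 (GRCm38) per the submitters' processing notes, from 10x 3′ libraries. Per the study's methods, cells with over 500 UMIs were kept and labelled by their highest correlation with ImmGen profiles. The 4 libraries held 158337797 to 315577167 UMIs. They match no sample label, so no treatments were compared.

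UMIs were summed by label and library and scaled to CPM, with exact Poisson intervals. Shares used cells with at least 2000 UMIs, thinned to 2000, with exact binomial (Clopper-Pearson) 95% intervals. Doublets were scored with scrublet in scanpy 1.11.5 (expected rate 0.0600), and 606 cells scored over 0.25. They were kept, and left out only as an alternative. A label led a gene when highest in every library and at least 2-fold above the next (0.1 CPM added), among genes with at least 100 UMIs in every library. The script was tested on simulated data. Genes named were the 9 members, the other CC family genes, the 3 genes nearest to each member, and markers. A listed gene is not reported here. The members and lists were chosen with earlier results of these data known. The mast and neutrophil classes, the limit to T cell labels and the division at the median depth were chosen after seeing the data. Python 3.11.15, numpy 2.4.6, scipy 1.17.1, pandas 2.3.3 and matplotlib 3.10.9 were used.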

Additional observations from a re-analysis of the deposited data

How the results depend on the processing

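At 4-fold in place of 2-fold over the next label, 212 genes led in 1 label in place of 1234, and the members still numbered 4. Of 90 log2 ratios of the leading to the next label, recomputed under 10 settings, 0 turned negative. In the deeper cells alone, however, *Ccl5* was higher in T cell MEM than in NK cells, at 2032 against 1104 CPM pooled. *Ccl2* in Stroma against Myeloid cells ranged from 0.30 (without M6) to 0.93 (without M1), and *Ccr2* in NK cells against ILC from 0.12 to 0.22. Of 90 levels, 7 moved by over 1.5 times. With every cell weighted equally, Myeloid *Ccl3* was 1912, *Ccl4* 2233 and *Ccr1* 407 CPM, and *Ccl5* in NK cells 6599. Without the richest 1% of cells, Myeloid *Ccl8* was 730.1 and *Ccl17* in DC 23.7 CPM, and without M6 the latter was 27.6. The causes were not tested. Leaving out mast-marker or neutrophil-marker Myeloid cells was chosen after seeing the data. No paired analysis was possible because the libraries match no sample label and no test was run.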
